A study of Mus musculus with 12 samples.

Results

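Fth1, Ftl1 and Tfrc were selected by name as classic mRNAs under iron control: Fth1 (ENSMUSG00000024661) encodes the ferritin heavy chain, Ftl1 (ENSMUSG00000050708) the ferritin light chain, and Tfrc (ENSMUSG00000022797) the transferrin receptor. All 3 were among the 9621 genes with values in each of the 12 libraries and were taken by name, with no threshold on a measured value. The libraries came from RAW264 cells, an established mouse macrophage line, in 3 groups. Basal cells received no stimulus, LPS cells received the bacterial cell wall component lipopolysaccharide at 100 ng/ml for 30 min, and LPS + DEX cells received LPS with the synthetic glucocorticoid dexamethasone at 10 µM for 30 min. Cells of every group, controls included, were treated with cycloheximide at 100 µg/ml before extraction, which holds cytosolic ribosomes on mRNA. Poly(A) mRNA and ribosome-protected fragments (RPF, the footprints of ribosomes) were each sequenced from 2 samples per group, which the submitters call independent biological replicates.

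Ferritin is a hollow shell of heavy and light chains that stores iron. The heavy chain oxidises ferrous iron as it enters and the light chain helps to form the mineral core, while the transferrin receptor takes iron-loaded transferrin into the cell. All 3 mRNAs carry iron-responsive elements, hairpins bound by iron regulatory proteins, the products of Aco1 and Ireb2, when iron is scarce. Both ferritin mRNAs hold the element near the cap, where a bound protein blocks the start of translation. The Tfrc mRNA holds several in its 3′ UTR, where the bound protein protects it from decay. Macrophages recycle iron from red cells and handle much of the iron of the body, and iron release and storage in these cells are known to change during inflammation.

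The RefSeq windows around the annotated starts show where each gene begins, and the sequences printed here are those around the TATAA letters in the sense strand, given in capitals (build GRCm38.p6). They are shown because each member had such a match in at least 1 of its windows. Each window held 250 bases before and 50 after a start, with 1 window for Ftl1 and 2 each for Fth1 and Tfrc. The Ftl1 stretch lies on the minus strand at chr7:45459852-45459881 and its capitals begin 18 bases into the annotated transcript. The Fth1 stretch lies on the plus strand at chr19:9982660-9982689, with the capitals beginning 27 bases into the transcript that starts there. The Tfrc stretch lies on the plus strand at chr16:32608938-32608967. Its capitals begin 172 bases before the annotated transcript start of 1 of the 2 Tfrc windows. The other Tfrc window, chr16:32608646-32608945, ends before the capitals, so they lie downstream of its annotated start.
Ftl1: gggtcaacatgcTATAAaaggagcgctcct
Fth1: gcaggatcccgcTATAAgtgcggcccgctg
Tfrc: gtggggccgagcTATAAgctttgggtggga
Short motifs were searched on both strands after the sequences had been seen, and a match here is a description of letters only. TATAA was in 24.9% of all 32851 windows and in 4 of the 5 windows of the members. The loop letters of the iron-responsive element, CAGTGN, were in 55.8% of all windows and in 2 of the 5. Neither match lay past a start: the Ftl1 match began 243 bases before it and the Tfrc match, on the opposite strand, 61 bases before it. The windows end 50 bases past an annotated start and do not reach the 3′ UTR. This search therefore could not show whether the elements are present. The letters TGACTCA of an AP-1 site (5.2% of all windows), a core of NF-kB sites (GGG, NN and TTTCC joined, 1.63%) and the ACANNNTGT core of glucocorticoid receptor sites (6.85%) were in 0 of the 5. The hypoxia response core ACGTG (19.6% of all windows) was in both Tfrc windows, which overlap, and the match is the same site in both.

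Depth was 1475119 to 2529666 reads per mRNA library and 821946 to 1833558 per RPF library, and values are read counts scaled to a common library total (CPM). The LPS footprint libraries were the shallowest, at 829415 and 821946 reads, against 1310291 to 1833558 in the other footprint libraries. Low depth and LPS thus coincide in footprints, and an effect of depth on the footprint changes was not tested. CPM are not scaled by gene length, so ranks and ratios between genes below describe reads, not molecules, and a ratio is compared only between libraries. Each value is a share of a library, so fewer cells of a type and less RNA per cell cannot be told apart. All 10 listed macrophage markers were detected, with a summed level of 4655 to 4964 CPM in mRNA. Basal mRNA replicate 1 stood apart: its Spearman correlation with the other mRNA libraries was 0.781 to 0.831, against 0.894 to 0.98 among those. In that library the epithelial markers Krt7 and Ddr1 summed to 2032 CPM, against 2.17 to 6.72 CPM in the other mRNA libraries. They were the 2 of 8 on their list that had values, and the other markers of the list were not among the listed genes. Ccdc185 and Tfr2 also stood high in that library alone, at 2735 and 1169 CPM, and the cause was not tested. The called results of the members that compare with this library, and the iron gene counts over all lists, are therefore also given without it. Standings among all genes and the counts of single iron lists are given with it only. P-values here rest on the spread between the 2 libraries of a group, pooled over all groups in a fit. That spread is also drawn towards the spread of genes with a similar level.

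Fth1 gave more mRNA reads than any other listed gene in all 6 mRNA libraries. Its mRNA level in basal cells was 25281 and 27010 CPM (26145 ± 1223, SD, n = 2), 22801 and 18668 CPM after LPS (20734 ± 2922), and 17395 and 15593 CPM after LPS + DEX (16494 ± 1274). The groups did not overlap and stood in the order basal, LPS, LPS + DEX. Footprints did not follow that order. The Fth1 RPF level in basal cells was 815 and 836 CPM (825 ± 14.7), 1129.7 and 1111 CPM after LPS (1120.2 ± 13.4), and 739.7 and 729 CPM after LPS + DEX (734 ± 7.83). The LPS libraries were highest, the LPS + DEX libraries lowest, and no groups overlapped. In footprint libraries Fth1 ranked 102nd to 195th of the 9621 genes by reads.

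Ftl1 mRNA ranked 6th to 9th by reads in the mRNA libraries. Its level in basal cells was 5917 and 6432 CPM (6175 ± 365), 6216 and 5595 CPM after LPS (5905 ± 439), and 5383 and 4515 CPM after LPS + DEX (4949 ± 614). Basal and LPS libraries overlapped, and both LPS + DEX libraries were below them. The Ftl1 RPF level in basal cells was 166 and 214 CPM (190 ± 34.5), 148 and 128 CPM after LPS (138 ± 14.5), and 131 and 142 CPM after LPS + DEX (137 ± 7.85). Both basal libraries were above the other 4, and the LPS and LPS + DEX libraries overlapped. These RPF levels rest on 105 to 326 reads per library. A near-identical copy, Ftl1-ps1 (ENSMUSG00000062382), was listed too and held 37.0% to 41.2% of the mRNA reads and 34.1% to 44.6% of the RPF reads assigned to either gene, so the split between the 2 is uncertain. With the reads of the copy added, the Ftl1 results below kept their direction and their call.

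Tfrc was the reverse case, with few mRNA reads and many footprints. Its mRNA level in basal cells was 48.1 and 61.7 CPM (54.9 ± 9.60), 73.9 and 72.9 CPM after LPS (73.4 ± 0.673), and 47.8 and 76.2 CPM after LPS + DEX (62.0 ± 20.1), or 71 to 172 reads per library. Both LPS libraries were above both basal libraries, and the LPS + DEX libraries, 1 low and 1 high, overlapped both groups. The Tfrc RPF level in basal cells was 758 and 746 CPM (752 ± 8.09), 933 and 948 CPM after LPS (940.5 ± 10.3), and 703 and 634 CPM after LPS + DEX (668 ± 48.8). As for Fth1, the LPS libraries were highest, the LPS + DEX libraries lowest, and no groups overlapped. Tfrc ranked 2498th to 3828th by reads in mRNA and 133rd to 259th in footprints.

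**Figure D1:**
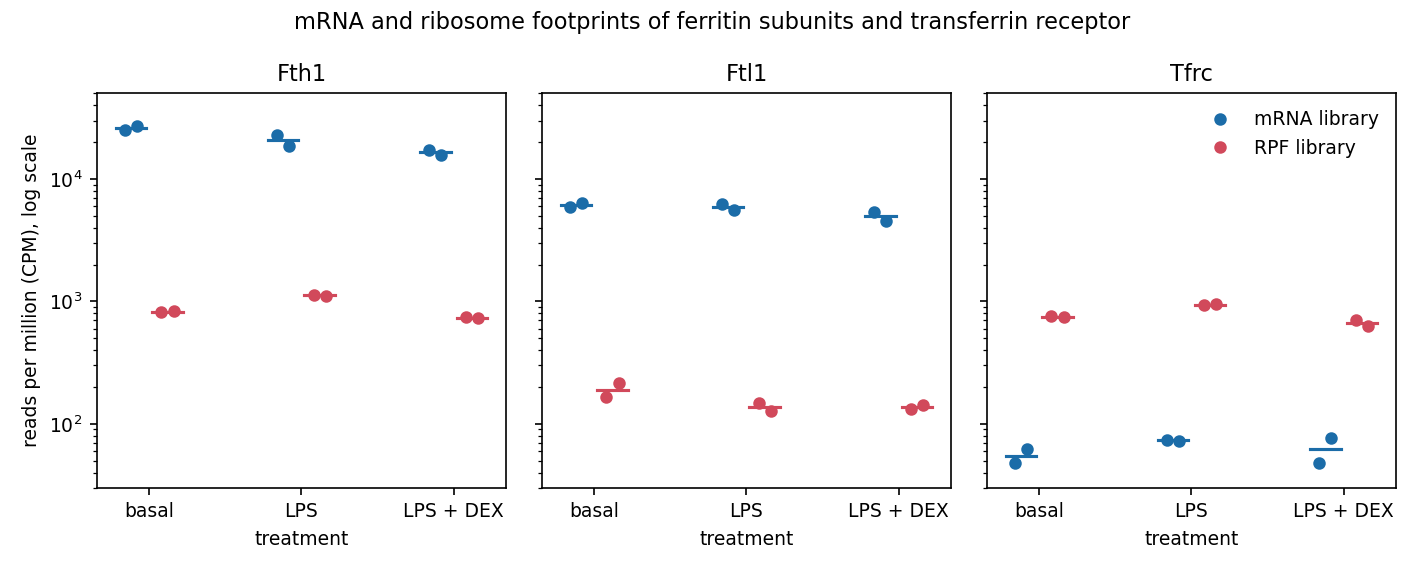
CPM of Fth1, Ftl1 and Tfrc in each library (points, with a bar at the mean of the 2 libraries of a group), by treatment, with mRNA and RPF on log axes. For both ferritin chains the mRNA points lie far above the RPF points (26145 against 825 CPM for Fth1 in basal cells), and for Tfrc far below them (54.9 against 752 CPM).

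Footprints against mRNA in the same treatment give the ribosome load of a gene, here called translational efficiency (TE): the log2 RPF level minus the log2 mRNA level, on log2(CPM + 1). The 2 assays cover different parts of a transcript and were prepared as separate libraries, so a TE is read against the other genes. In basal cells the TE of Fth1 was -4.98 (SE 0.09, limma adjusted p = 1.29e-12) and that of Ftl1 -5.03 (SE 0.13, adjusted p = 1.32e-11). Their footprint CPM were thus 3.16% and 3.08% of their mRNA CPM. Tfrc stood at 3.76 (SE 0.18, adjusted p = 3.27e-09), with 13.7 times more footprint than mRNA CPM. The median of all 9412 genes tested was 0.21. All 3 members passed the test, where 50.7% of all genes did (33.4% higher in RPF and 17.3% lower), so the call alone says little of a single gene. Of the 9412 genes, 12 had a lower TE than Fth1, 11 a lower one than Ftl1, and 103 a higher one than Tfrc.

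LPS and LPS + DEX cells gave the same picture, with the ferritin chains less alike. After LPS the TE was -4.20 for Fth1 (SE 0.09, limma adjusted p = 5.87e-12), -5.41 for Ftl1 (SE 0.13, adjusted p = 1.36e-11) and 3.66 for Tfrc (SE 0.18, adjusted p = 5.79e-09). After LPS + DEX it was -4.49 for Fth1, -5.16 for Ftl1 and 3.44 for Tfrc (largest adjusted p = 1.04e-08). All 3 members passed in both, against 51.9% of all genes after LPS and 51% after LPS + DEX. Fth1 footprints were 5.40% of its mRNA CPM after LPS and 4.45% after LPS + DEX, while Ftl1 stood at 2.34% and 2.76%. After LPS, 55 genes had a lower TE than Fth1 and 5 a lower one than Ftl1; after LPS + DEX these were 38 and 8. Tfrc footprints exceeded its mRNA by 12.8 times after LPS and 10.8 times after LPS + DEX, with 97 and 83 genes higher. The copy Ftl1-ps1 had a TE of -5.12, -5.21 and -5.08 in the 3 treatments. Without basal mRNA replicate 1, the basal TE was -5.03 for Fth1, -5.09 for Ftl1 and 3.59 for Tfrc. All 183 values of these 9 TE results under other settings kept their sign and passed the test.

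**Figure D2:**
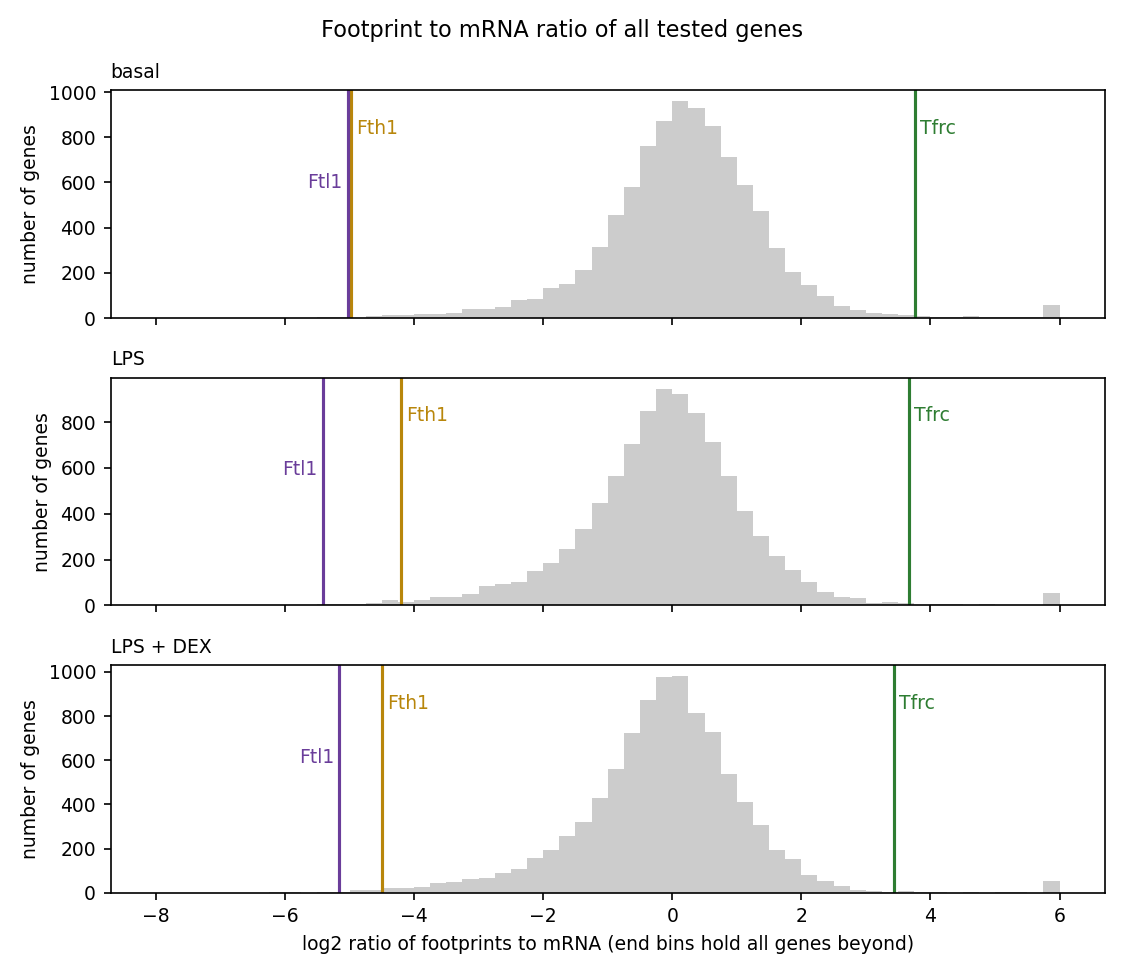
Number of genes by TE, log2 RPF minus log2 mRNA on log2(CPM + 1), in basal, LPS and LPS + DEX cells, over 9412 genes tested, with lines at Fth1, Ftl1 and Tfrc. The ferritin lines stand in the far lower tail (-4.98 and -5.03 in basal cells) and Tfrc in the upper tail (3.76).

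The place of the members was also read among genes with similar read numbers, thresholds for which were chosen after the values were seen. Of 148 mRNAs with a mean of at least 1000 CPM in basal cells, with a median TE of -0.93, 6 had a lower TE than Fth1. They were Ftl1, Ftl1-ps1, 3 mitochondrially encoded mRNAs (mt-Co2, mt-Co3 and mt-Nd1), which cytosolic ribosomes do not translate, and Ccdc185, which reached that mean through basal mRNA replicate 1 alone. Of 125 such mRNAs after LPS, 5 were lower than Fth1 and 1 was lower than Ftl1. At the other end, 340 genes had at least 500 CPM of footprints in basal cells, and 49 of them had a higher TE than Tfrc. Histone genes made up 39 of the 49, and replication-dependent histone mRNAs lack a poly(A) tail, by which the mRNA libraries were selected. After LPS 29 of 40 such genes were histones, and after LPS + DEX 25 of 37.

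LPS against basal asked what 30 min of stimulation did. Fth1 footprints rose by 0.44 (log2, SE 0.08, limma adjusted p = 0.00325) and Tfrc footprints rose by 0.32 (SE 0.08, adjusted p = 0.0314), and both LPS libraries were above both basal libraries for each. In the RPF fit 7.62% of all genes passed, 3.3% as higher and 4.32% as lower. Ftl1 footprints differed by -0.45 and did not pass (SE 0.14, adjusted p = 0.0703). In mRNA no member passed, where 10.7% of all genes did (9.03% higher, 1.68% lower): the differences were -0.34 for Fth1 (SE 0.13, adjusted p = 0.127), -0.07 for Ftl1 (SE 0.13, adjusted p = 0.752) and 0.42 for Tfrc (SE 0.25, adjusted p = 0.286). Fth1 mRNA stood at -0.61 with both other scalings, and passed as lower with TMM (limma adjusted p = 0.0464) and not with median of ratios (0.0502). Without basal mRNA replicate 1 none passed in mRNA (-0.39, -0.13 and 0.25). The Tfrc footprint call was lost without any 1 of the LPS or LPS + DEX footprint libraries (limma adjusted p = 0.0616 to 0.146), with no filter on low values (0.0769) and in a fit of these groups alone (0.0596). Ftl1 footprints passed as lower, at -0.64, without basal footprint replicate 1 (adjusted p = 0.00766).

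The TE of Fth1 rose with LPS by 0.78 (log2, SE 0.13, limma adjusted p = 0.00306), tested as the RPF change minus the mRNA change in 1 fit over 12 libraries. It was the member that passed, where 16.6% of all genes did (3.08% higher, 13.6% lower). The median TE change of all genes was -0.34, and 736 of 9412 genes had a larger rise than Fth1. Scaling by median of ratios in place of library totals moved the median mRNA change by -0.26 and the median TE change by 0.29. Over 20 other settings the Fth1 change ranged from 0.64 to 1.08, with adjusted p of at most 0.0241. Without basal mRNA replicate 1 it was 0.83 (adjusted p = 0.00412). The TE change was -0.39 for Ftl1 (SE 0.19, adjusted p = 0.173) and -0.10 for Tfrc (SE 0.26, adjusted p = 0.815), and that of Tfrc turned to 0.19 with median-of-ratios scaling and to 0.08 without basal mRNA replicate 1.

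**Figure D3:**
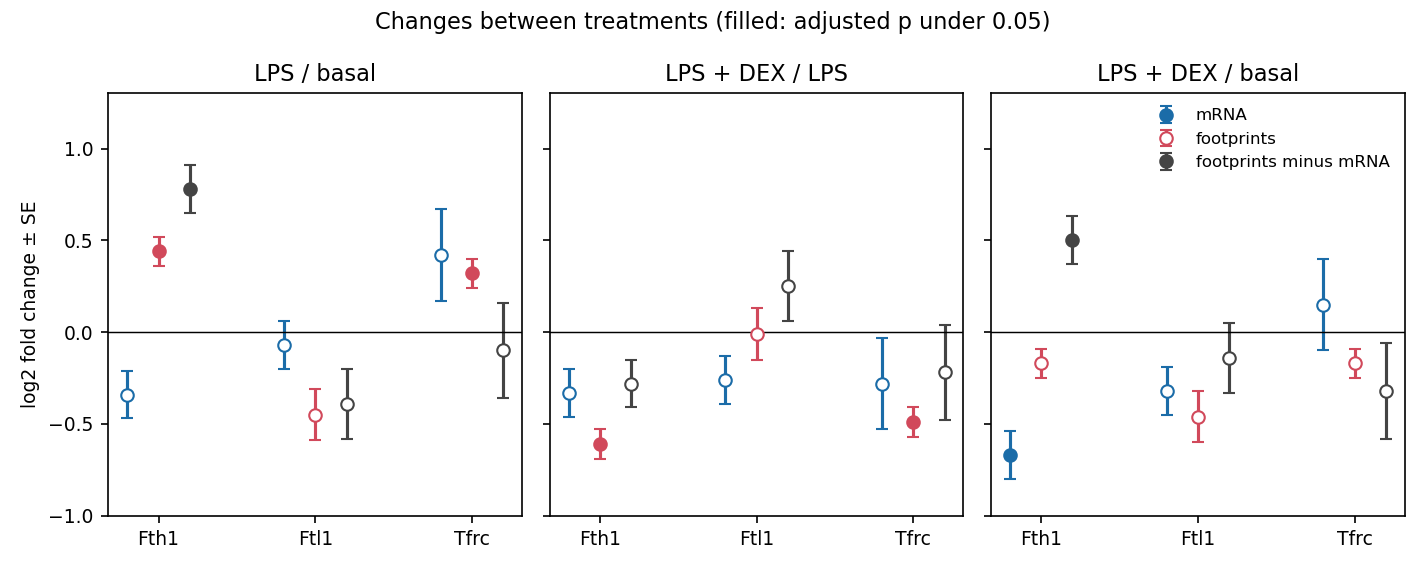
Log2 changes of Fth1, Ftl1 and Tfrc in mRNA, footprints and TE (footprints minus mRNA) for the 3 pairs of treatments, with bars of 1 SE and filled points for limma adjusted p under 0.05. For LPS against basal, the Fth1 points are at -0.34 in mRNA, 0.44 in RPF and 0.78 in TE.

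LPS + DEX against LPS asked what dexamethasone added to the stimulus. Footprints of Fth1 fell by 0.61 (log2, SE 0.08, limma adjusted p = 0.000289) and those of Tfrc fell by 0.49 (SE 0.08, adjusted p = 0.00275), against 6.69% of all genes called (3.14% higher, 3.55% lower). The change of Ftl1 footprints was -0.01 (SE 0.14, adjusted p = 0.982). This comparison uses the same LPS libraries as LPS against basal, so the rise and the fall of Fth1 and Tfrc are not independent. In mRNA the differences were -0.33 for Fth1, -0.26 for Ftl1 and -0.28 for Tfrc, each with an adjusted p of 1. No gene was called there (0% of 9277) by limma-trend or by limma-voom, and 183 had an unadjusted p under 0.05. The TE change was -0.28 for Fth1 (adjusted p = 0.789), 0.25 for Ftl1 (adjusted p = 0.939) and -0.22 for Tfrc (adjusted p = 0.982), and none passed, where 0.0531% of all genes did (0.0106% higher, 0.0425% lower). The Tfrc footprint call was lost without LPS + DEX footprint replicate 2, at -0.42 (adjusted p = 0.101).

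LPS + DEX against basal gave the net difference after both agents. Fth1 mRNA fell by 0.67 (log2, SE 0.13, limma adjusted p = 0.0135), against 22.7% of all genes called (4.23% lower), and 695 of 9277 genes had a lower value. The mRNA difference was -0.32 for Ftl1 (SE 0.13, adjusted p = 0.0997) and 0.15 for Tfrc (SE 0.25, adjusted p = 0.7). The copy Ftl1-ps1 fell by 0.49 (SE 0.13, adjusted p = 0.0331). Footprints of no member passed, against 4.63% of all genes (1.77% higher, 2.86% lower): the differences were -0.17 for Fth1 (SE 0.08, adjusted p = 0.278), -0.46 for Ftl1 (SE 0.14, adjusted p = 0.0853) and -0.17 for Tfrc (SE 0.08, adjusted p = 0.307). The TE of Fth1 rose by 0.50 (SE 0.13, adjusted p = 0.0258), where 14.9% of all genes passed (2.68% higher), and those of Ftl1 (-0.14, SE 0.19, adjusted p = 0.658) and Tfrc (-0.32, SE 0.26, adjusted p = 0.439) did not pass.

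These net calls rested on few libraries. The Fth1 mRNA call was lost without LPS + DEX mRNA replicate 1 (-0.74, adjusted p = 0.0713) or replicate 2 (-0.59, adjusted p = 0.0574), and its TE call was lost in 6 of 12 fits that left out 1 library. Without basal mRNA replicate 1 both held, at -0.71 for mRNA (adjusted p = 0.0177) and 0.54 for TE (adjusted p = 0.0372). With limma-voom the Fth1 TE call was lost too (adjusted p = 0.0853). With median-of-ratios scaling the Fth1 TE change was 0.83 (adjusted p = 0.00324), where the median of all genes, -0.34 on library totals, also moved up. Ftl1 footprints passed as lower with limma-voom (-0.47, adjusted p = 0.0413) and without basal footprint replicate 1 (-0.65, adjusted p = 0.00881). Ftl1 mRNA passed as lower with median-of-ratios scaling (-0.62, adjusted p = 0.0246), and Tfrc mRNA turned to -0.14 with it and to -0.03 without basal mRNA replicate 1.

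The ratio of the ferritin chains within a library needs no scaling between libraries. In mRNA the Fth1 to Ftl1 ratio of CPM was 4.27 and 4.20 in basal cells, 3.67 and 3.34 after LPS, and 3.23 and 3.45 after LPS + DEX. In footprints it was 4.92 and 3.90 in basal cells, 7.62 and 8.70 after LPS, and 5.64 and 5.12 after LPS + DEX. The footprint ratio was highest in the LPS libraries and the mRNA ratio highest in the basal libraries, without overlap in either case. With reads of the copy added to Ftl1, the footprint ratio was 2.72 and 2.57, 4.28 and 5.28, and 3.59 and 2.94 in the same order, again highest after LPS. For such a single value, an exact permutation test of 2 libraries against 2 cannot give a two-sided p below 0.333, and the ratios are given as a description. The ratio of Fth1 to Tfrc in footprints stayed between 1.05 and 1.21 in the 6 libraries, while in mRNA it ranged from 205 to 525.

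**Figure D4:**
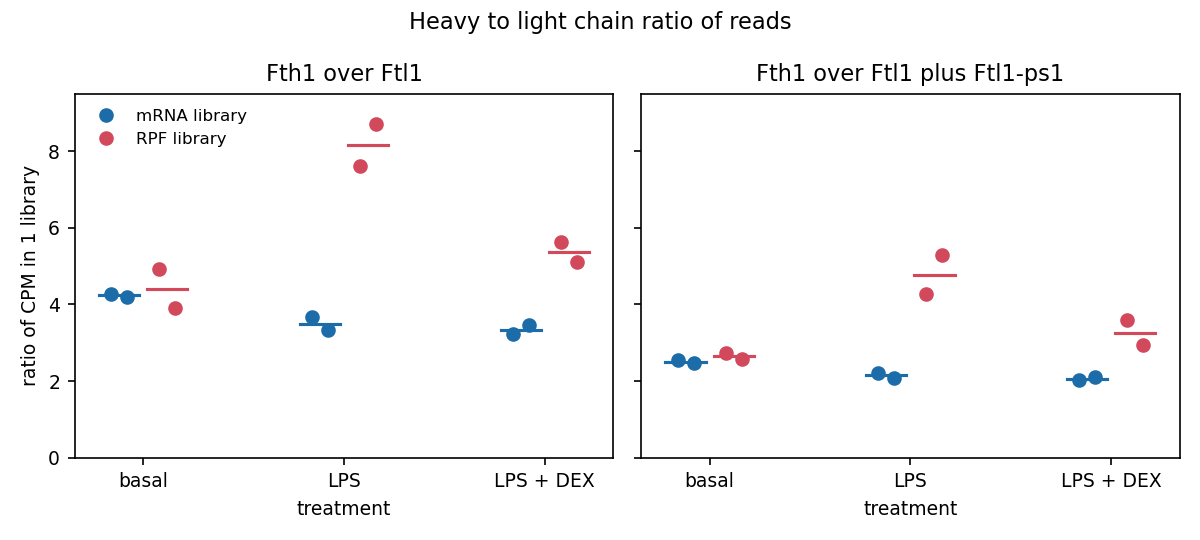
Ratio of Fth1 to Ftl1 CPM in each library, in mRNA and RPF, by treatment, with Ftl1 alone and with reads of its copy Ftl1-ps1 added. The RPF ratio reached 7.62 and 8.70 in the LPS libraries, against 3.90 to 5.64 in the other RPF libraries.

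Other genes of iron handling were read from 5 lists of 103 genes, of which 76 were listed. In basal cells 18 of the 76 had a higher and 18 a lower RPF than mRNA level (limma, adjusted p under 0.05), where 33.4% and 17.3% of all genes were, with a median TE of 0.11 against 0.21 for all genes. Among iron regulators and chaperones, 4 of 13 were higher and 3 lower. Ireb2, which encodes an iron regulatory protein, had 14.8 CPM in mRNA and 65.9 CPM in RPF (TE 2.09, SE 0.23, adjusted p = 8.23e-06). Ncoa4, the receptor that carries ferritin to lysosomes for breakdown, had 38.3 and 105 CPM (TE 1.44, SE 0.20, adjusted p = 7.22e-05). Aco1, whose product binds iron-responsive elements when it holds no iron-sulfur cluster, had a TE of 1.04 (SE 0.18, adjusted p = 0.000401). Pcbp4 had a TE of -2.28 (adjusted p = 0.0151) on a mean of 2.18 CPM of footprints, and did not pass without basal mRNA replicate 1 (-1.81, adjusted p = 0.0575).

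Of 8 other mRNAs known for an iron-responsive element, 4 were listed, and in basal cells 1 was higher and 1 lower in RPF than in mRNA. Slc40a1, the iron exporter ferroportin, had 20.9 CPM in mRNA and 7.27 CPM in RPF, a TE of -1.44 (SE 0.45, limma adjusted p = 0.0166) on few reads. Cdc14a had a TE of 1.13 (adjusted p = 0.0420) on 4.13 CPM of mRNA, and did not pass with median-of-ratios (0.90, adjusted p = 0.0936) or TMM scaling (0.94, adjusted p = 0.0842) or without basal mRNA replicate 1 (0.92, adjusted p = 0.14). Slc11a2, the divalent metal transporter, had 32.4 CPM in mRNA and 35.1 in RPF. In the other lists, to be read against 33.4% of all genes higher and 17.3% lower, iron uptake, transport and export had 6 higher and 3 lower of 18, and heme synthesis and breakdown 6 higher and 1 lower of 17. The heme exporter Flvcr1 stood at 2.18 (adjusted p = 1.48e-05). Iron-sulfur cluster assembly had 1 higher and 10 lower of 24, with Bola3 at -2.37 (adjusted p = 7.56e-06) and Ciao2a at -2.33 (adjusted p = 7.87e-07). With median-of-ratios scaling the split over the 76 genes was 13 higher and 27 lower. Without basal mRNA replicate 1 it was 15 and 15 of 75.

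**Figure D5:**
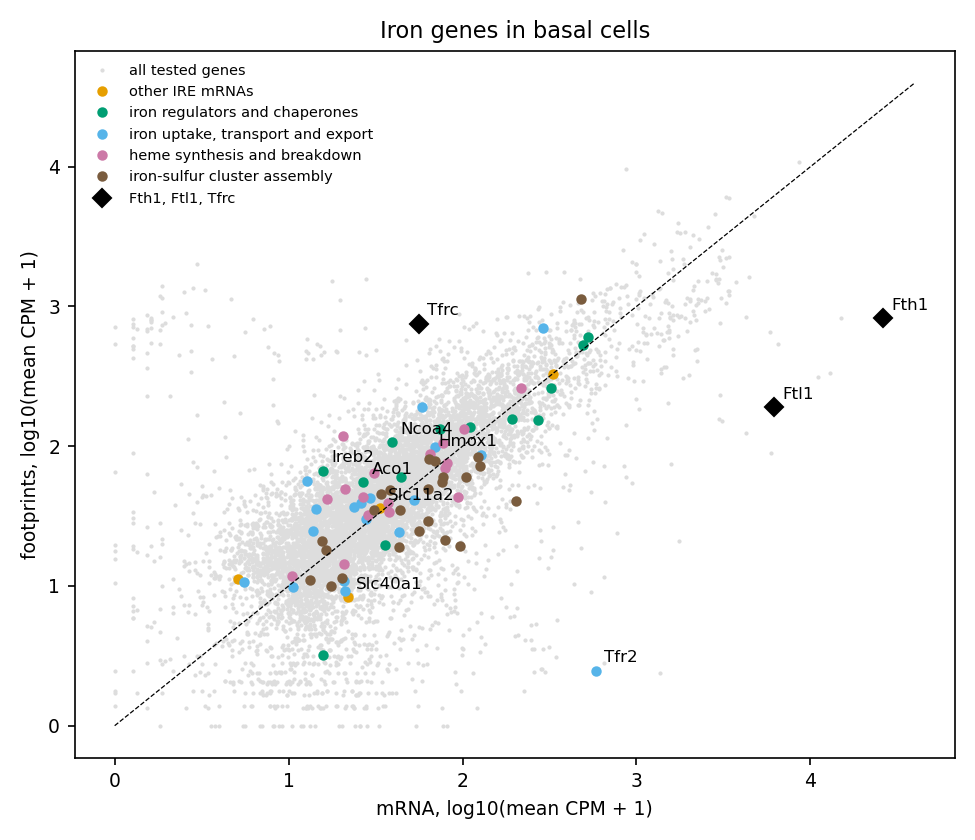
Mean RPF level against mean mRNA level in basal cells, both as log10(mean CPM + 1), for all tested genes, the listed iron genes, and Fth1, Ftl1 and Tfrc. Fth1 (26145 CPM mRNA, 825 CPM RPF) and Ftl1 (6175 and 190) lie far below the diagonal, and Tfrc (54.9 and 752) far above it. Tfr2 stands to the right of the other iron genes through basal mRNA replicate 1 alone, with 1169 CPM there and 0 in replicate 2.

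After LPS, 5 of the 76 iron genes rose in mRNA and 0 fell (limma, adjusted p under 0.05), where 9.03% of all genes rose and 1.68% fell. Those that rose included Slc11a2 by 0.83, Aco1 by 0.83, the lysosomal iron channel Mcoln1 by 0.93, and Ndor1 from 14.6 to 30.1 CPM. The median change of the 76 was 0.25, against 0.26 for all genes. With median-of-ratios scaling none of these 5 passed (0 higher and 1 lower of 76), and without basal mRNA replicate 1 there were 3 higher and 0 lower of 75. In RPF 0 of 74 rose and 2 fell (3.3% and 4.32% of all genes): Bola2 by 0.67 (adjusted p = 0.00832) and the endocytic receptor Lrp1 by 0.34 (adjusted p = 0.0339). Lrp1 did not pass with median-of-ratios (-0.28, adjusted p = 0.0818) or TMM scaling (-0.28, adjusted p = 0.0814). In TE 1 rose and 10 fell (3.08% and 13.6% of all genes). The ubiquitin ligase subunit Rbx1 rose by 0.59 (adjusted p = 0.0489), and the falls included Slc11a2 by 1.16 (adjusted p = 0.0119). Fth1 thus moved up in TE while Slc11a2, which is also known for an iron-responsive element, moved down, and the median TE change over the 76 genes was -0.39. The difference between Fth1 and Slc11a2 was not tested. With median-of-ratios scaling 3 rose and 4 fell in TE, and without basal mRNA replicate 1 there were 2 and 7 of 75.

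Between LPS + DEX and LPS, footprints of 4 of 74 iron genes rose and 1 fell (limma, adjusted p under 0.05), where 3.14% and 3.55% of all genes did, with a median of 0.02, the same as over all genes. Bola2 rose by 0.96 (adjusted p = 0.000600), Lrp1 by 0.65 (adjusted p = 0.000573), Pcbp1, a chaperone that delivers iron to ferritin, by 0.55 (adjusted p = 0.00332), and Fdx1l by 1.21 (adjusted p = 0.0469). Slc11a1, which exports metal from phagosomes, fell by 0.55 (adjusted p = 0.0448). Bola2 thus moved against Fth1 and Tfrc in both footprint comparisons, which share the LPS libraries. In mRNA 0 of 76 passed, where 0% of all genes did. Between LPS + DEX and basal, 13 of 76 mRNAs rose and 2 fell, where 18.5% of all genes rose and 4.23% fell. These counts became 4 and 9 with median-of-ratios scaling, and 13 and 3 of 75 without basal mRNA replicate 1. Aco1 was among those that rose under both scalings, by 1.08 (adjusted p = 0.0101) and 0.79 (adjusted p = 0.0254). In RPF, Slc11a1 fell by 0.69 (adjusted p = 0.0163) and was the listed iron gene that passed, of 74 (1.77% of all genes higher, 2.86% lower). In TE 0 rose and 6 fell (2.68% and 12.2% of all genes), which became 6 and 0 with median-of-ratios scaling, and 1 and 4 of 75 without basal mRNA replicate 1. The heme-degrading enzyme Hmox1 passed in none of the comparisons between treatments, with 57.6 and 69.8 CPM of mRNA and 89.3 and 84.8 CPM of footprints in basal cells.

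The genes most like each member across the 6 libraries of an assay were found by Pearson correlation of log2(CPM + 1), among genes with a mean of at least 50 CPM. The libraries of a treatment and their depth are shared by all genes, so the values are descriptions. Over all 12 libraries the assays form separate clusters, so no pooled value is given. In footprints (3725 genes) Fth1 was most like Atp5f1 (r = 0.996, Spearman rho = 0.886), Chchd1 and mt-Co2, and Ftl1 most like the histone genes Hist1h4f (r = 0.994, rho = 0.943) and Hist1h4j, followed by Tmed2. Tfrc was most like Eif2s2 (r = 0.995, rho = 0.943), Stag1 and Hsp90b1. In mRNA (3600 genes) Fth1 was most like Hmgn2 (r = 0.995, rho = 1), Pttg1 and Ciao2a, Ftl1 most like Rhoc (r = 0.981, rho = 0.943), H2-M3 and Cstb, and Tfrc most like Spred1 (r = 0.998, rho = 0.943) and Prelid3b. Neither ferritin chain was among the 3 genes most like the other in either assay.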

How the data were processed

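The values deposited by the authors are CPM plus 1 per Ensembl gene and library, a unit read from the values themselves: the lowest is 1, and after subtracting 1 all values are whole reads within 0.1 read. Aligner, genome build and annotation: not given in the sources used here. Symbols matched 9521 of 9621 identifiers. Tested were genes that reached 10 reads (scaled to the median depth) in 2 or more libraries and 15 reads over all libraries, with limma-trend (limma 3.58.1, R 4.3.3) on log2(CPM + 1). The 6 mRNA libraries were fitted together, the 6 RPF libraries together, and all 12 for TE, with treatment (and assay) as the only factors. P-values are two-sided with Benjamini-Hochberg adjustment over all genes tested, and a gene was called at an adjusted p under 0.05. The scripts were tested on simulated data. The main test was run as planned. Since CPM plus 1 are not counts, the planned count-based alternatives were not run, and limma-voom on recovered reads was added instead. Footprints per codon were not analysed here. The members, lists and named-gene rule (members, copies of ferritin genes, at most the 4 largest called changes of a list, and fixed iron genes) were chosen with earlier results of these data known. Alternatives were other scalings, no filter, log2(CPM + 2), a replicate block, only the groups compared, and leaving out each library. Some genes that the named-gene rule selects are not reported here.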

Additional observations from a re-analysis of the deposited data

How the results depend on the processing

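Of 606 values of the members under other settings, 567 kept direction and call, 16 lost the call, 6 gained it and 17 changed sign. With median-of-ratios and TMM scaling, mRNA calls for LPS against basal were 501 (184 higher, 317 lower) and 542 (196 and 346) in place of 994 (838 and 156), and TE calls for LPS + DEX against basal were 863 (507 higher, 356 lower) and 855. Under these 2 scalings in turn, LPS + DEX against basal gave -0.62 and -0.62 for Ftl1 mRNA, -0.14 and -0.15 for Tfrc mRNA, and 0.20 and 0.16 for Ftl1 TE, with 0.01 for Tfrc TE under the first. LPS against basal gave 0.19 and 0.16 for Tfrc TE and, with TMM, -0.61 for Fth1 mRNA, which then passed. Without a filter the RPF calls were 281 (LPS against basal), 273 (LPS + DEX against LPS) and 132 (LPS + DEX against basal), and Tfrc RPF for LPS against basal, at 0.32, lost its call. With only the groups compared, calls were 399 (mRNA) and 321 (RPF) for LPS against basal, with Tfrc RPF at 0.32 and not called, and 6 (mRNA) and 71 (TE) for LPS + DEX against LPS. With limma-voom, mRNA calls for LPS against basal were 464, TE calls 870, RPF calls for LPS + DEX against basal 619, TE calls for LPS + DEX against LPS 0, Ftl1 RPF for LPS + DEX against basal -0.47 and called, and Fth1 TE 0.50 and not called (adjusted p = 0.0853). With log2(CPM + 2), TE calls for LPS + DEX against LPS were 20.

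Leaving out 1 library at a time, mRNA calls ranged from 7 to 2184 for LPS against basal, 0 to 5 for LPS + DEX against LPS and 1 to 2882 for LPS + DEX against basal. RPF calls ranged from 303 to 727, 94 to 894 and 97 to 476 in the same order, and TE calls from 736 to 2161, 0 to 51 and 546 to 1893. For LPS against basal, Ftl1 mRNA ranged from -0.14 to 0.01, Ftl1 RPF from -0.64 to -0.27, Tfrc RPF from 0.31 to 0.33 and Tfrc TE from -0.28 to 0.08. For LPS + DEX against LPS, Tfrc mRNA ranged from -0.61 to 0.05, Ftl1 RPF from -0.12 to 0.10, Tfrc RPF from -0.57 to -0.42 and Tfrc TE from -0.55 to 0.11. For LPS + DEX against basal, Fth1 mRNA ranged from -0.74 to -0.59, Tfrc mRNA from -0.18 to 0.48, Ftl1 RPF from -0.65 to -0.28, Fth1 TE from 0.42 to 0.58, Ftl1 TE from -0.32 to 0.05 and Tfrc TE from -0.65 to 0.01. The causes were not tested.

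The labels link replicates of different groups only by a number. Differences between replicate 1 and replicate 2 correlated at -0.161 to 0.097 between groups. They also hold the spread of read counting, so these values cannot decide whether same-numbered libraries shared a culture. A replicate block gave 390 mRNA calls for LPS against basal, and a block by treatment and number gave 0 TE calls for LPS + DEX against LPS. No call of a member changed with either block. Depth limits Ftl1 footprints and Tfrc mRNA the most, at 105 to 326 and 71 to 172 reads.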
